A study of Homo sapiens with 7 samples.

Results

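The genes described here encode 10 subunits and partners of the Polycomb repressive complexes, chosen by gene symbol as EZH1, EZH2, SUZ12, EED, JARID2, MTF2, PHF19, BMI1, RNF2 and CBX2. They make 10 of the 60662 genes counted. Their RNA was measured by total RNA sequencing in 7 libraries of 2 human T-cell leukaemia lines, PF-382 and MOLT-14, with different states of STAG2, which encodes a subunit of cohesin, the ring-shaped complex that forms DNA loops. The PF-382 cells were STAG2 knockouts, made with a Cas9-gRNA ribonucleoprotein (3 libraries), or untreated wild-type cells (2 libraries). The MOLT-14 cells had been transduced either with STAG2 (1 library) or with an empty vector (1 library). The labels do not say whether libraries of 1 group are separate clones or cultures, so p values measure only the spread between these libraries, which may be technical. Knockout libraries are numbered 1 to 3 and wild-type libraries 1 and 2 here as names only. The sample titles carry codes whose meaning is not given. These begin with SA in both wild-type libraries and knockout library 1, and with SB in knockout libraries 2 and 3. All 10 genes passed the filter on low counts in every comparison.

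Polycomb proteins keep developmental genes silent by modifying histones. Polycomb repressive complex 2 (PRC2) trimethylates a lysine in the tail of histone H3 through EZH2 or its paralogue EZH1, and needs SUZ12 and EED for that activity, while JARID2, MTF2 and PHF19 are accessory proteins that guide it to chromatin. Polycomb repressive complex 1 (PRC1) attaches ubiquitin to histone H2A through the ligase RNF2, which is paired with BMI1 in its canonical form, and CBX2 is one of the chromodomain proteins that read the mark of PRC2. In T-cell acute lymphoblastic leukaemia, loss-of-function lesions of EZH2, SUZ12 and EED recur.

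Depth was 65262329 to 93970572 counts in knockout and 32609485 to 33145516 in wild-type PF-382 libraries, and 45013453 with STAG2 and 38678382 with the empty vector in MOLT-14. Small RNA genes took 12.0% to 14.0% of the counts in knockout and 14.9% and 21.0% in wild type, and 9.27% with STAG2 and 4.87% with the empty vector. STAG2 itself (ENSG00000101972.18, chrX:123960212-124422664) had 256, 180 and 195 CPM (counts per 1000000 counts of the TMM-scaled library total) in knockout libraries 1 to 3, against 334 and 567 CPM in wild-type libraries 1 and 2. Gene positions here are on GRCh38. The log2 change of STAG2 was -1.13 ± 0.26 (SE, edgeR, adjusted p 0.0218), and the call was lost without knockout library 2 (0.0757) or 3 (0.0773). MOLT-14 had 137 CPM of STAG2 RNA with STAG2 transduction and 1.15 CPM with the empty vector. Each of the 14 T-lineage markers reached 1 TPM (transcripts per 1000000, which corrects for length within a library) in at least 1 of the 7 libraries. In PF-382, 13 of them passed the filter on low counts. Their summed levels, over all 14, were 2176 to 3078 TPM in knockout and 1672 to 3251 TPM in wild type. Of the other marker lists, MS4A1 and PAX5 (B lineage), ELANE (myeloid), HBB, HBA1 and PF4 (erythroid and megakaryocyte) and COL1A2 (stromal) stood at 0 in all 7 libraries, but other members did not. The 7 myeloid markers summed to 0.08 to 0.2 TPM in knockout and 5.79 to 12.5 TPM in wild type, the 6 B-lineage markers to 2.11 to 7.99 and 4.16 to 15.3 TPM, and the 6 stromal and epithelial markers to 2.71 to 3.65 and 4.46 to 8.12 TPM. Of those tested, 2 of 2 myeloid, 1 of 3 B-lineage and 2 of 4 stromal and epithelial markers fell in knockout. So did 1 of 1 erythroid and megakaryocyte and 1 of 13 T-lineage markers, while the 1 natural killer marker tested did not pass. None rose in any of these lists, where 14.6% of all genes tested fell and 15.8% rose. Markers near 0 in knockout, as the myeloid ones were, can pass the filter through wild type alone, and can then hardly be called higher. The counts of these marker lists thus do not measure a direction. In MOLT-14 the B-lineage markers summed to 27.1 TPM with STAG2 and 28.2 TPM with the empty vector, and the myeloid markers to 12.1 and 21.6 TPM. The part of these cells or transcripts in the results was not tested.

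Promoter sequences of 9 of the 10 genes, all but CBX2, were matched by symbol in RefSeq (GRCh38.p14), in 13 entries. The 250 bases before the start are given for 3 of the 4 genes called in the knockout, EZH1 and PHF19, which were lower, and SUZ12, which was higher. PHF19 has 2 starts in the table. Each sequence runs 5′ to 3′ on the gene's strand. Capitals mark matches, on either strand, to a minimal E2F motif (TTTNNCGC, bound by the cell-cycle factors of that name) or to the CCAAT box (CCAAT).
SUZ12 (chr17:31936757-31937006, + strand): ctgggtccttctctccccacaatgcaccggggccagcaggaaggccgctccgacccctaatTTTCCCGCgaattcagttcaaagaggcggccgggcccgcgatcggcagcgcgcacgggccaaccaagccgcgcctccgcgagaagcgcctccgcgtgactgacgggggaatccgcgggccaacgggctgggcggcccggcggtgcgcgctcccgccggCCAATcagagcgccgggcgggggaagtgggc
EZH1 (chr17:42745041-42745290, - strand): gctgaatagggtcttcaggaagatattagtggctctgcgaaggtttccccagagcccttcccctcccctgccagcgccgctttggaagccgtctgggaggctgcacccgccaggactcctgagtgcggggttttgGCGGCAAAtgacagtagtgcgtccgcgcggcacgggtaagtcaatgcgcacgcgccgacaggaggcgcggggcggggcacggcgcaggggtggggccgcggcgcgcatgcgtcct
PHF19 first start (chr9:120877189-120877438, - strand): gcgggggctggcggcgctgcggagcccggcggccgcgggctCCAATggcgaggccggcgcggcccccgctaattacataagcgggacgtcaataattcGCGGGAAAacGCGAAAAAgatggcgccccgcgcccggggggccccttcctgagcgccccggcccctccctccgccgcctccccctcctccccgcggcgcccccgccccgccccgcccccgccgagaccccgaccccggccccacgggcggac
PHF19 second start (chr9:120868912-120869161, - strand): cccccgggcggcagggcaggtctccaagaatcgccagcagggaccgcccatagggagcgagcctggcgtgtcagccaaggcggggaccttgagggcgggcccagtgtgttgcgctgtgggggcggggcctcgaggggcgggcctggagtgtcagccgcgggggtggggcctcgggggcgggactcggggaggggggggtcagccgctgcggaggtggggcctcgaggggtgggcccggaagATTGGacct

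The E2F letters stood once before the starts of SUZ12 and EZH1 and 2 times before the first start of PHF19, and 5.92% of the 35116 promoters in the table hold them. No other promoter of the 9 genes held them, the second start of PHF19 included. The CCAAT letters stood before SUZ12 and both PHF19 starts, as in 32% of promoters. Of the promoters not shown, EZH2 held the CCAAT letters 4 times before its first start, EED and JARID2 held them once each, and BMI1 held the E-box letters CACGTG once, which 6.34% of promoters hold. No match overlapped another motif. A match of letters describes the sequence and does not show binding.

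The comparison within PF-382 asks how the Polycomb genes differ when STAG2 is inactivated. PHF19, an accessory subunit of PRC2, fell 2.04-fold and the PRC2 paralogue EZH1 fell 1.40-fold, while the PRC1 subunit CBX2 rose 1.79-fold and the PRC2 core subunit SUZ12 rose 1.35-fold. The other 6 genes did not pass the test. Thus 4 of 10 genes were called, 2 higher and 2 lower, where 30.4% of the 17442 genes tested were called (15.8% higher and 14.6% lower). The test was the two-sided quasi-likelihood test of edgeR, with p values adjusted by the Benjamini-Hochberg method over all genes tested and a threshold of 0.05. The knockout and wild-type libraries did not overlap for 6 of the 10 genes and for 60.03% of all genes tested. The median log2 change was -0.06 over the 10 genes and -0.02 over all genes. Both the count and the median thus lay near those of all genes. In bulk RNA, fewer cells of a state and less RNA per cell cannot be told apart. Calls here and below are from edgeR with this adjustment.

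**Figure D1:**
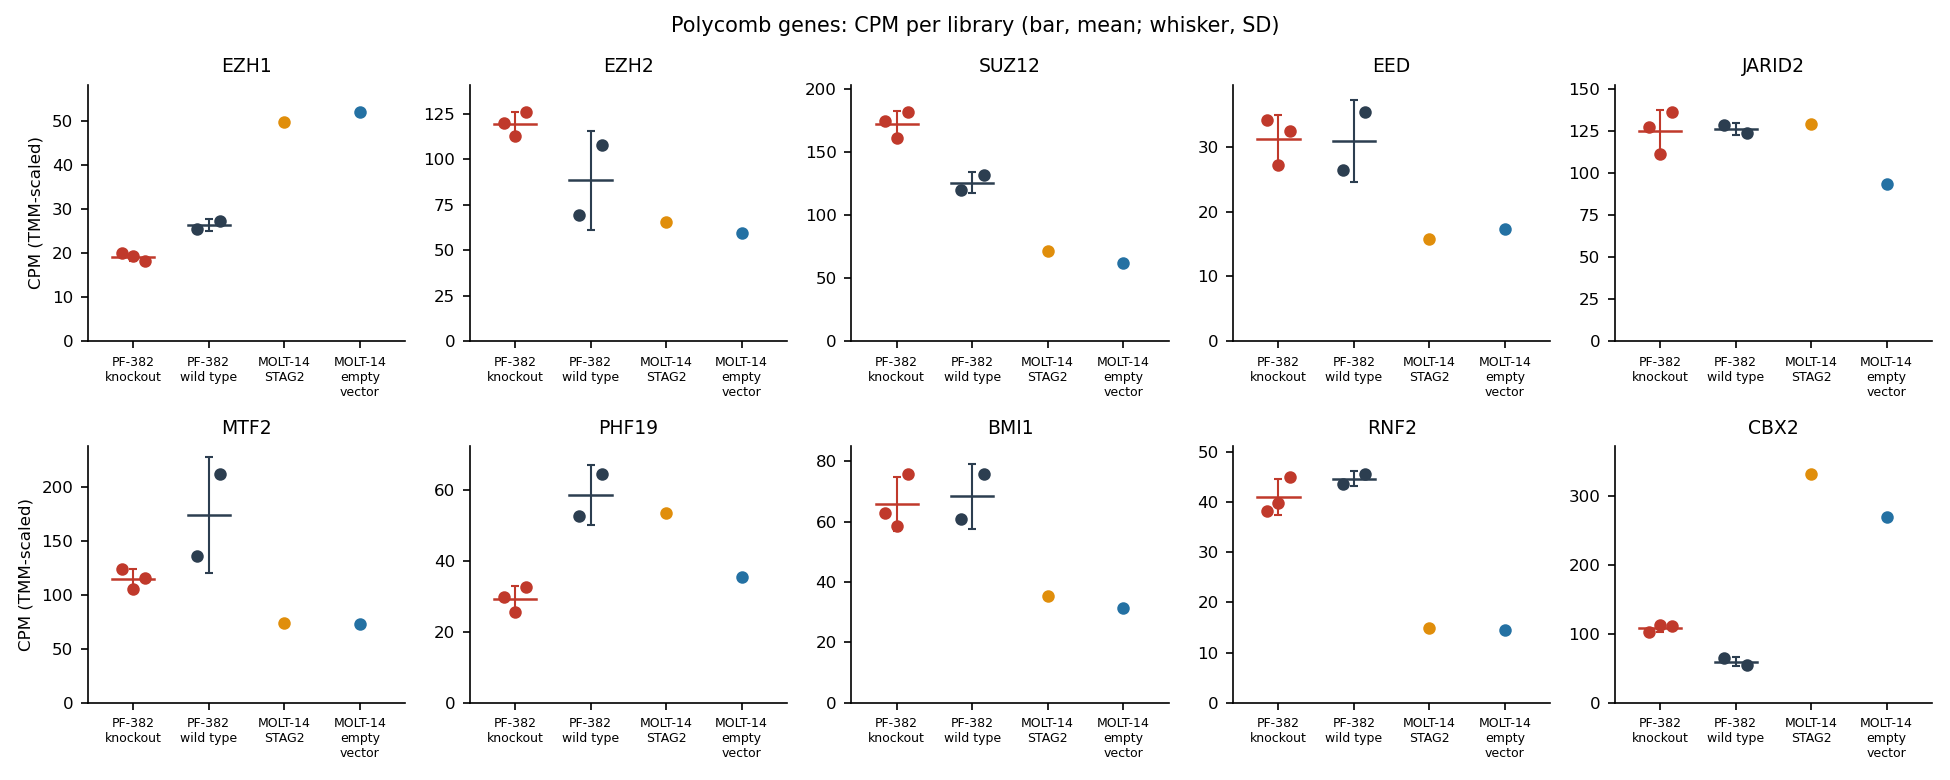
CPM (TMM-scaled, y axis from 0 in each panel) of the 10 Polycomb genes in each library; points are libraries, bars are means and whiskers SD for PF-382 knockout (n = 3) and wild type (n = 2), and MOLT-14 has 1 library per condition. PHF19 lies between 25.8 and 32.8 CPM in knockout and at 52.7 and 64.8 CPM in wild type, and CBX2 stands highest in MOLT-14.

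Among the PRC2 core genes, the catalytic subunit EZH2 (ENSG00000106462.10, chr7:148807383-148884321) had 120, 113 and 126 CPM in the 3 knockout libraries, against 69.2 and 108 CPM in the 2 wild-type libraries. All knockout libraries were above both wild-type libraries, but the wild-type libraries lay farther from each other than wild-type library 2 lay from knockout. The log2 change of 0.41 ± 0.20 (SE) did not pass (adjusted p 0.158). It was 0.79 without wild-type library 2, where it passed (adjusted p 0.00551), and 0.13 without wild-type library 1 (0.402). EZH1 (ENSG00000108799.13, chr17:42700275-42745049), the less active paralogue that prevails in resting cells, had 20.0, 19.3 and 18.1 CPM in knockout, against 25.4 and 27.3 CPM in wild type. Its groups were separate and each was tight, and the log2 change was -0.49 ± 0.12 (SE, adjusted p 0.0257). SUZ12 (ENSG00000178691.11, chr17:31937018-32001045), the scaffold on which PRC2 assembles, had 174, 161 and 182 CPM in knockout, against 120 and 131 CPM in wild type. Its libraries did not overlap either, with a log2 change of 0.43 ± 0.12 (SE, adjusted p 0.0377). EED (ENSG00000074266.20, chr11:86244544-86278813), which binds the methyl mark, had 34.1, 27.2 and 32.4 CPM in knockout, against 26.4 and 35.4 CPM in wild type. The wild-type values enclosed those of knockout (log2 change -0.01 ± 0.18, SE, adjusted p 0.960).

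The calls of EZH1 and SUZ12 depended on which libraries were kept. Each remained in 1 of the 5 fits that left out 1 library. EZH1 stayed only without wild-type library 1 and ranged from -0.53 to -0.41 on the log2 scale (highest adjusted p 0.0971), and SUZ12 stayed only without wild-type library 2 and ranged from 0.37 to 0.52 (highest adjusted p 0.136). SUZ12 also missed the threshold with upper-quartile scaling (0.27, adjusted p 0.105) and with a filter of 1 CPM in 2 libraries (0.35, 0.0577), and EZH1 without a filter (-0.41, 0.0787).

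Of the PRC2 accessory genes, PHF19 (ENSG00000119403.15, chr9:120855652-120894896), a Polycomb-like protein that binds CpG-rich DNA and a methylated lysine of histone H3, had 29.8, 25.8 and 32.8 CPM in knockout, against 52.7 and 64.8 CPM in wild type. Every knockout library held less than every wild-type library, and the means were 29.4 ± 3.51 (SD, n = 3) and 58.8 ± 8.51 CPM (SD, n = 2). The log2 change of -1.03 ± 0.15 (SE) had an adjusted p of 0.00653, and it stayed called in all 5 fits without 1 library (-1.16 to -0.84). MTF2 (ENSG00000143033.18, chr1:93079235-93139081), a Polycomb-like protein of the same family, had 124, 105 and 115 CPM in knockout, against 136 and 212 CPM in wild type. Knockout was below wild type throughout, but the wild-type libraries lay farther apart than wild-type library 1 did from knockout. The log2 change of -0.63 ± 0.20 (SE) missed the threshold (adjusted p 0.0548). It passed with DESeq2 (-0.64, adjusted p 0.0169) and, in edgeR, with upper-quartile scaling (-0.79, 0.0222), with a filter of 1 CPM in 2 libraries (-0.71, 0.0349) and without wild-type library 1 (-0.91, 0.00342). It did not pass without wild-type library 2 (-0.25, 0.178) or without any 1 of the knockout libraries (adjusted p 0.102 to 0.153). JARID2 (ENSG00000008083.14, chr6:15246296-15522040), which recruits PRC2 and lacks demethylase activity despite its fold, had 128, 111 and 136 CPM in knockout, against 129 and 124 CPM in wild type. Its groups overlapped (log2 change -0.04 ± 0.13, SE, adjusted p 0.822).

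In PRC1, CBX2 (ENSG00000173894.11, chr17:79778132-79787983) had 102, 113 and 111 CPM in knockout, against 64.2 and 54.6 CPM in wild type. All 3 knockout libraries stood far above both wild-type libraries, with means of 109 ± 5.66 (SD, n = 3) and 59.4 ± 6.77 CPM (SD, n = 2). The log2 change of 0.84 ± 0.12 (SE) had an adjusted p of 0.00601 and was called in all 5 fits without 1 library (0.76 to 0.97). RNF2 (ENSG00000121481.11, chr1:185045364-185102608), the ubiquitin ligase, had 38.2, 39.9 and 45.0 CPM in knockout, against 43.6 and 45.7 CPM in wild type (log2 change -0.15 ± 0.12, SE, adjusted p 0.378). BMI1 (ENSG00000168283.14, chr10:22321211-22331484), its partner and a self-renewal gene of blood stem cells, had 62.8, 58.6 and 75.9 CPM in knockout, against 60.7 and 75.8 CPM in wild type (log2 change -0.08 ± 0.16, SE, adjusted p 0.722). For both genes the knockout range ran into the wild-type range.

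**Figure D2:**
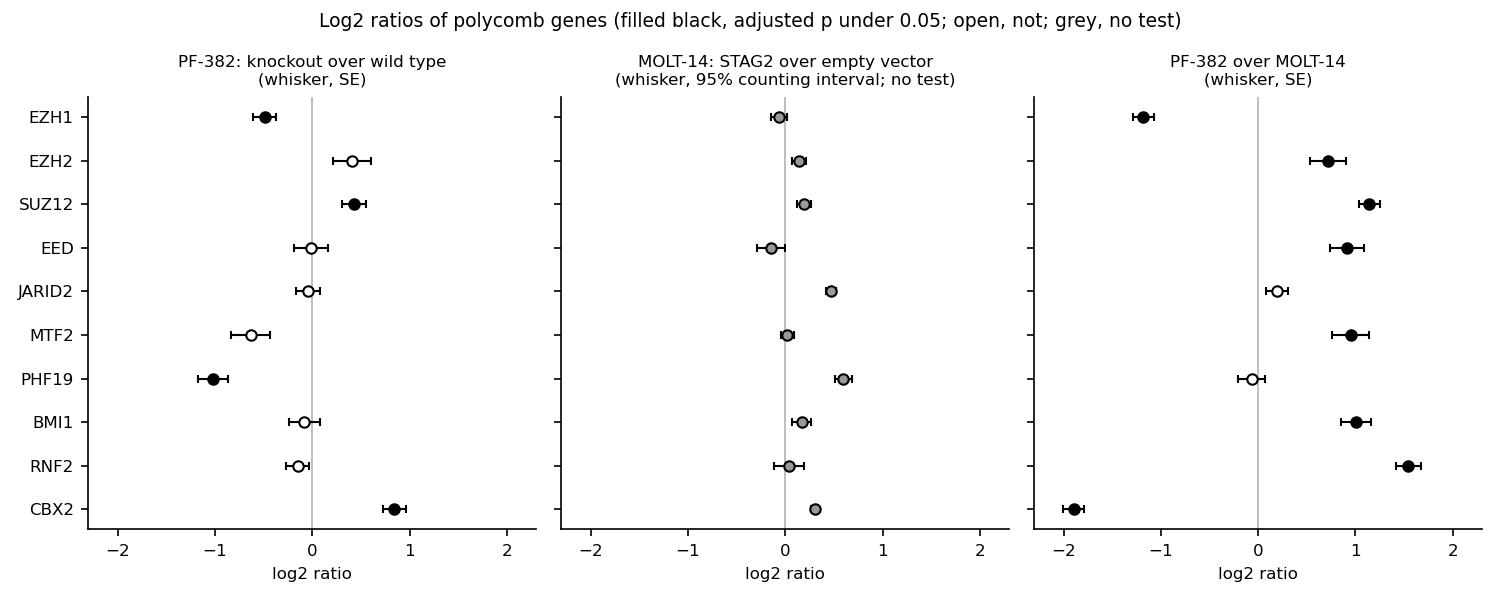
Log2 changes of the 10 Polycomb genes (x axis) in PF-382 knockout over wild type and in PF-382 over MOLT-14, with whiskers of 1 SE from edgeR, and in MOLT-14 STAG2 over empty vector, with counting intervals at 95% that cover counting error only. In PF-382, PHF19 lies lowest at -1.03 and CBX2 highest at 0.84, and in MOLT-14 PHF19 lies highest at 0.60.

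Levels of different genes were set side by side per length, as TPM within a library. EZH2 stood first of the 10 genes in all 3 knockout libraries (25.7, 20.4 and 22.0 TPM) and MTF2 first in both wild-type libraries (18.7 and 38.9 TPM). EZH1 was last in all 5 PF-382 libraries, at 3.32 to 4.03 TPM in knockout and 3.70 and 5.54 TPM in wild type. In MOLT-14, CBX2 stood first with 60.3 TPM with STAG2 and 75.6 TPM with the empty vector, and EED last with 6.31 and 10.3 TPM. These TPM are compared within a library, since the small RNA share differs between libraries.

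The balance of alternative subunits, as shares of summed TPM, does not depend on the scaling between libraries. EZH1 made 13.6%, 14.5% and 13.1% of EZH1 and EZH2 together in knockout, against 25.6% and 20.3% in wild type. The groups did not overlap, and the shares averaged 13.7% ± 0.688 (SD, n = 3) in knockout and 22.9% ± 3.76 (SD, n = 2) in wild type. RNF2 made 38.2%, 42.1% and 44.3% of RNF2 and its paralogue RING1 in knockout, against 55.1% and 60.3% in wild type. All 3 knockout shares of RNF2 were below both wild-type shares, and it was RING1 that passed the test, higher (below). An exact permutation test of 3 against 2 libraries cannot give a two-sided p under 0.2, so none is given for these shares.

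Within the Polycomb-like family, PHF1 made 10.5%, 12.1% and 11.0% of the sum of PHF1, MTF2 and PHF19 in knockout, against 16.5% and 14.2% in wild type. The share of PHF19 overlapped between the groups (32.0% to 34.2% in knockout, 33.5% and 29.3% in wild type), as did that of MTF2 (54.8% to 57.5% and 50.0% to 56.5%). JARID2 made 55.1% to 62.4% of JARID2 and AEBP2, the alternative PRC2 cofactor, in knockout and 51.0% and 42.9% in wild type, which did not overlap. BMI1 made 92.0% to 97.0% of BMI1 and PCGF2 in knockout and 93.3% and 85.3% in wild type, which did. In MOLT-14 the EZH1 share was 39.9% with STAG2 and 44.2% with the empty vector, above all 5 PF-382 libraries.

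**Figure D3:**
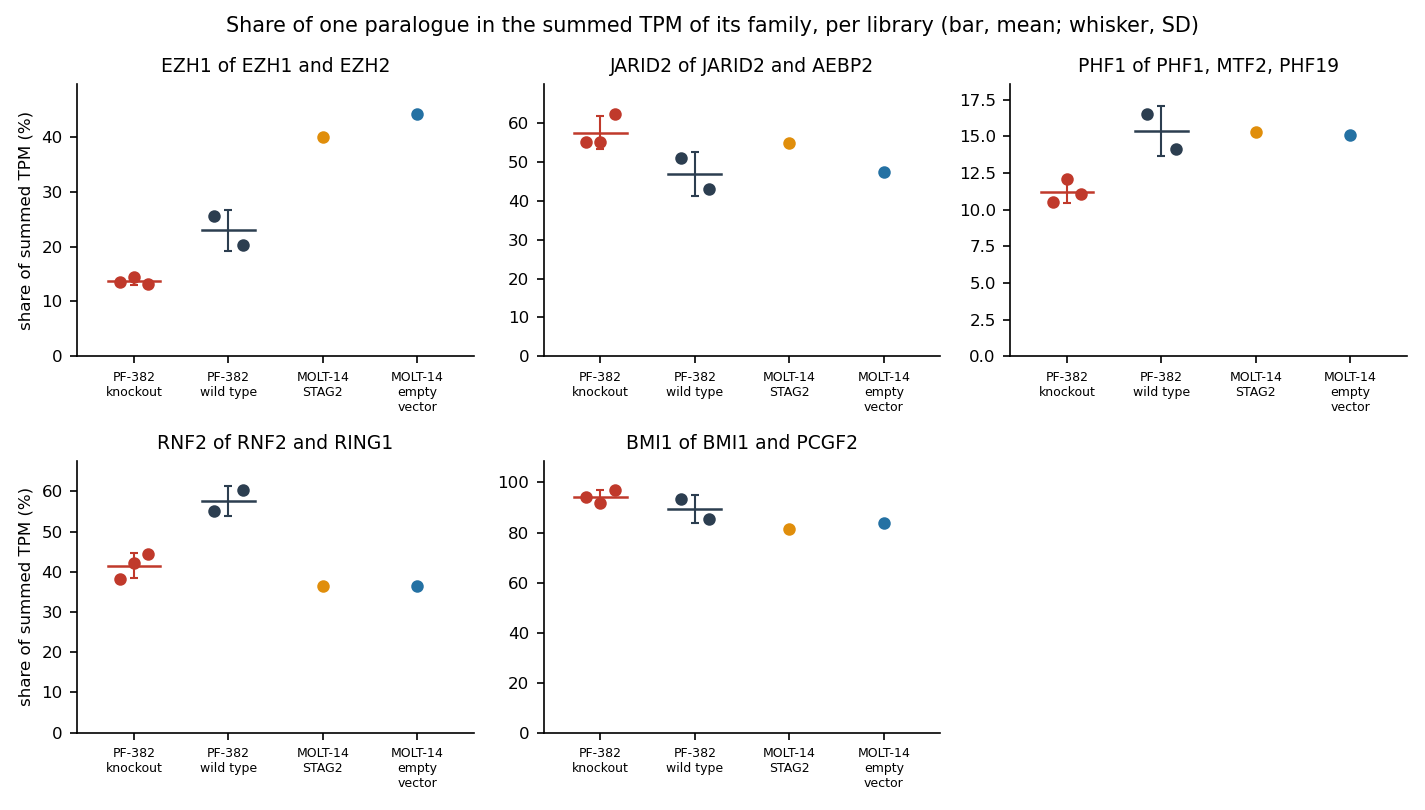
Share of 1 gene in the summed TPM of its alternative subunits (percent, y axis from 0) in each library; bars are means and whiskers SD for the PF-382 groups. The EZH1 share lies at 13.1% to 14.5% in knockout and at 20.3% and 25.6% in wild type, and at 39.9% and 44.2% in the MOLT-14 libraries.

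Counts also depend on which transcripts of a gene are present, since longer ones yield more reads. The effective transcript length that the authors' counts and FPKM (fragments per transcript length and library size) imply for PHF19 was 1092 to 1202 bases in knockout and 1475 to 1490 bases in wild type. Its transcripts were thus estimated as shorter in every knockout library, a log2 difference of -0.37, and 1.85% of 7573 well-counted coding genes differed by as much. With this length as an offset, PHF19 was still lower (log2 change -0.66, adjusted p 0.0172). For CBX2 the length was 3847 to 3929 bases in knockout and 3177 to 3484 bases in wild type. That is a log2 difference of 0.22, and 8.40% of the 7573 genes differed by as much. With the offset CBX2 was still higher (0.62, adjusted p 0.0114). The offset moved EZH1 to -0.49 (adjusted p 0.0308) and SUZ12 to 0.41 (0.0415), and MTF2 then passed (-0.68, 0.0456). The lengths rest on the authors' split of reads between isoforms, which short reads do not fix well.

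**Figure D4:**
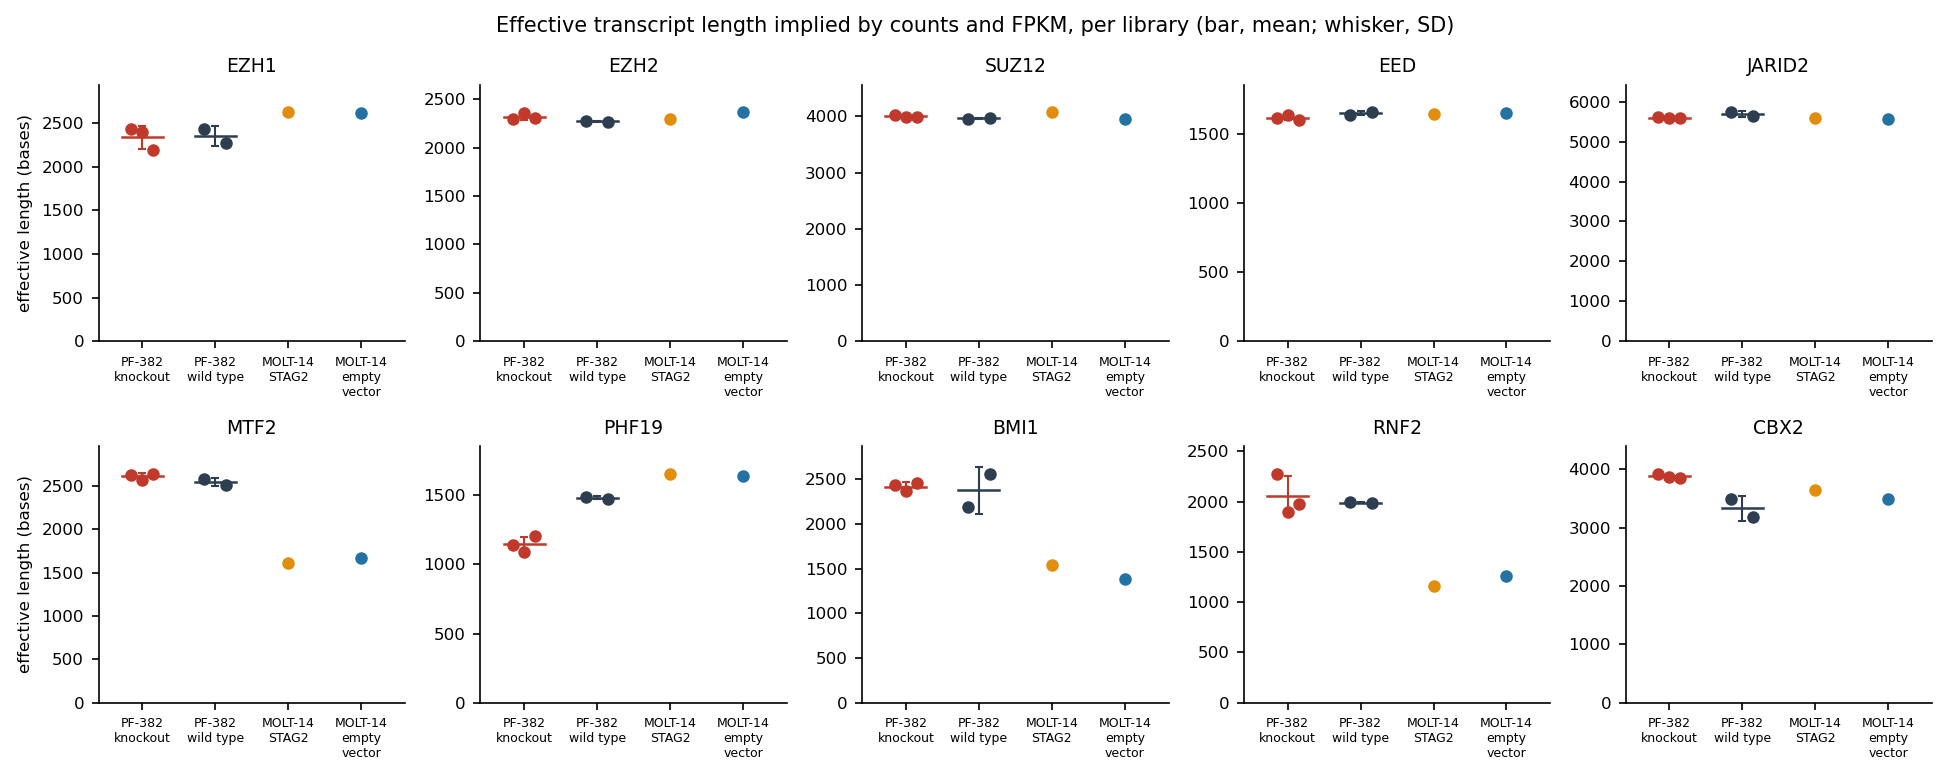
Effective transcript length in bases (y axis from 0) implied by the deposited counts and FPKM, per gene and library; bars are means and whiskers SD for the PF-382 groups. PHF19 is shorter in the 3 knockout libraries (1092 to 1202 bases) than in wild type (1475 and 1490), and MTF2, BMI1 and RNF2 are shorter in both MOLT-14 libraries than in all PF-382 libraries.

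Genes of the same pathways were read from lists, which like the 10 genes were drawn up with earlier results of these data known. The counts in these lists stand against 30.4% of all genes called (15.8% higher and 14.6% lower). Among 6 other PRC2 genes tested, none rose and PHF1, the third Polycomb-like protein, fell. PHF1 had 11.6, 13.1 and 12.9 CPM in knockout, against 28.1 and 32.3 CPM in wild type (log2 change -1.30 ± 0.14, SE, adjusted p 0.00305). All knockout libraries were below both wild-type libraries. Of 24 other PRC1 genes, 6 rose, 3 fell and 15 did not pass, which is near the 30.4% of all genes called. L3MBTL2, a subunit of the variant PRC1 that E2F6 joins, averaged 80.7 ± 2.37 CPM in knockout and 32.6 ± 8.54 CPM in wild type (log2 change 1.28, adjusted p 0.00532). RING1, the paralogue of RNF2, averaged 42.4 ± 1.30 and 25.4 ± 3.26 CPM in these groups (0.71, 0.0104), and PHC3, a polyhomeotic subunit of canonical PRC1, 63.0 ± 5.22 and 103.8 ± 25.1 CPM (-0.75, 0.0212; SD, n = 3 and 2). In all 3 genes the libraries of the groups did not overlap. PHF1, L3MBTL2 and RING1 were called under all 14 alternatives tried, and PHC3 in 11 of them. The split of the PRC1 list turned with upper-quartile scaling (2 higher and 5 lower), with a filter of 1 CPM in 2 libraries (3 and 4) and without wild-type library 1 (5 and 6), and without knockout library 1, 2 or 3 it was 2 higher and 0 lower.

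BAP1 is the deubiquitinase that removes the PRC1 mark from histone H2A. Of 10 genes of its complex tested, its cofactor HCFC1 (0.77 on the log2 scale, adjusted p 0.0171) and BAP1 itself (0.41, 0.0373) rose and none fell, where 15.8% of all genes rose. Of 15 H3K27 demethylase and trithorax genes, none rose, and the demethylase KDM6A (-0.53, adjusted p 0.0249) and the methyltransferases KMT2D (-0.61, 0.0288) and KMT2B (-0.43, 0.0484) fell, where 14.6% of all genes fell. Neither count was far from the share over all genes. KDM6A had 16.4, 17.0 and 18.8 CPM in knockout, against 23.8 and 25.4 CPM in wild type, and the groups did not overlap. With upper-quartile scaling the first list had 1 higher and 3 lower, as it had with the length offset, and the second had 0 higher and 7 lower. The second had 1 higher and 0 lower without wild-type library 2. Without knockout library 2 or 3 none of either list was called.

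Classical Polycomb targets were little detected in PF-382, and 25 of the 41 listed did not pass the filter on low counts. Of the 16 tested, none rose, 4 fell and 12 did not pass, where 14.6% of all genes fell. PAX6, a developmental transcription factor, had 0.131, 0.173 and 0.0546 CPM in knockout, against 2.38 and 1.94 CPM in wild type (log2 change -4.17 ± 0.48, SE, adjusted p 0.00369). It was low in all 5 libraries and lower in each knockout library. A gene near the floor can pass the filter through the group where it is high, as PAX6 did through wild type. Its direction is then given by its entry, so the counts of this list do not measure a direction of the targets. With a filter of 1 CPM in 2 libraries, 8 targets were tested, of which 0 rose and 2 fell. ADRB1, a receptor gene, and the cyclin gene CCND2 also fell at low levels (-1.95 and -1.73, adjusted p 0.0226 and 0.0302). Leaving out 1 library gave 1 to 4 targets lower and 0 to 1 higher, and PAX6 was called in each of these fits. The cell-cycle inhibitor genes CDKN2A and CDKN2B had 0 counts in all 7 libraries, where 3 counts would make 0.0347 to 0.0972 CPM.

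Genes of the E2F and S-phase list, which EZH2 and other PRC2 genes are known to accompany in dividing cells, mostly ran higher in knockout. Of 20 tested, 10 rose, 2 fell and 8 did not pass, where 15.8% of all genes rose and 14.6% fell, with a median log2 change of 0.81. The replication helicase genes MCM5 and MCM2 rose, and MCM5 averaged 418 ± 29.6 CPM in knockout (SD, n = 3) and 183 ± 22.8 CPM in wild type (SD, n = 2; log2 changes 1.16 and 0.95, adjusted p 0.00397 and 0.00457). CDT1, the licensing factor, fell (-0.82, adjusted p 0.00626), as did MKI67, the Ki-67 proliferation gene (-0.90, adjusted p 0.0404), named here after its value was seen. MCM5, MCM2 and CDT1 were called under all 14 alternatives, and over these the list had 7 to 13 genes higher and 1 to 5 lower.

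**Figure D5:**
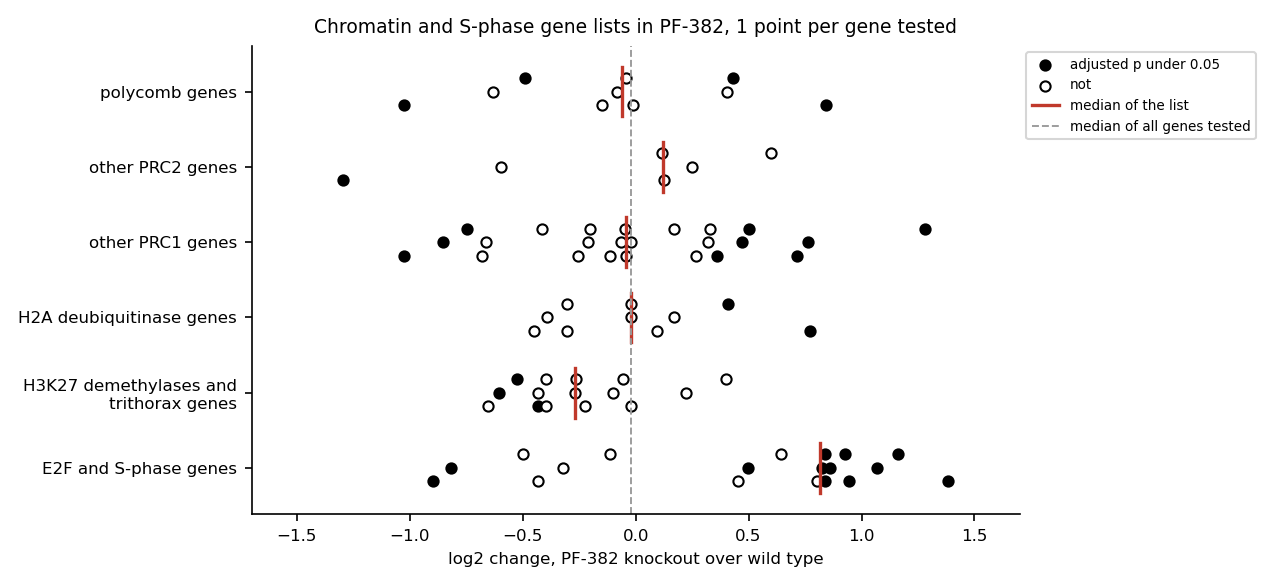
Log2 change of the tested genes of each list drawn (x axis, knockout over wild type in PF-382), with filled points for genes past an adjusted p of 0.05 and a bar at the list's median. The list of classical Polycomb targets is not drawn. In the lists drawn 1 gene, TK1, which had 0 counts in both wild-type libraries, lies outside the axis. The E2F and S-phase genes have a median of 0.81 and the Polycomb genes one of -0.06.

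In MOLT-14 the comparison asks how the genes differ when STAG2 is supplied to a line whose empty-vector library held almost no STAG2 RNA. No Polycomb gene differed by 2-fold, where 1.83% of the 11123 genes with at least 5 CPM did (1.02% higher and 0.800% lower with STAG2). With 1 library per condition there is no replicate check and no test, and the intervals here cover counting error only. PHF19 had 53.6 CPM with STAG2 and 35.5 CPM with the empty vector, the largest ratio of the 10 genes (1.51-fold, log2 0.60, 95% interval 0.51 to 0.68). JARID2 had 129 CPM with STAG2 and 93.4 CPM with the empty vector (log2 0.47, interval 0.42 to 0.53), and CBX2 had 332 and 269 CPM (0.30, interval 0.27 to 0.33). These 3 genes were higher with STAG2 by more than counting error.

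The PRC2 core genes differed less in MOLT-14. SUZ12 had 71.1 CPM with STAG2 and 62.3 CPM with the empty vector (log2 0.19), EZH2 had 65.7 and 59.4 CPM (0.15), and EED had 15.7 and 17.4 CPM (-0.14). EZH1 had 49.8 CPM with STAG2 and 52.1 CPM with the empty vector (-0.06), and its interval reached 0.02. BMI1 had 35.4 and 31.5 CPM (0.17), MTF2 73.7 and 72.5 CPM (0.02) and RNF2 14.9 and 14.5 CPM (0.04), and the intervals of MTF2 and RNF2 included 0. The interval excluded 0 for 7 of the 10 genes, 6 higher and 1 lower with STAG2. The share of all genes whose interval excluded 0 was not computed, so whether 7 of 10 is unusual cannot be told. The median log2 ratio was 0.16 over the 10 genes, 0.03 over all genes and 0.41 over the E2F and S-phase genes. On the authors' TPM the median of all genes was -0.51, and relative to it PHF19 stood at 0.51, JARID2 at 0.40, CBX2 at 0.18, EZH2 at 0.13, SUZ12 at 0.09, BMI1 at -0.05, EZH1 at -0.13 and EED at -0.19. The direction of BMI1 against other genes thus turned with the scaling. The Polycomb target PAX6 had 8.70 CPM with STAG2 and 4.20 CPM with the empty vector. Of the 8 classical targets with at least 5 CPM, 3 were past 2-fold higher with STAG2 and 0 lower. Over all genes these shares were 1.02% and 0.800%. A target was kept with 5 CPM in either library, and PAX6 reached that with STAG2 only. Near that floor the higher library decides entry, and there is 1 library per condition, so the counts of targets do not measure a direction.

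Set side by side, PHF19 was lower in the PF-382 knockout (log2 -1.03) and higher with STAG2 in MOLT-14 (0.60), and so lower in both lines where there was less STAG2 RNA. CBX2, SUZ12 and, without passing the test, EZH2 were higher in the PF-382 knockout and also higher with STAG2 in MOLT-14. EZH1 was lower in the PF-382 knockout (log2 -0.49) and near 0 in MOLT-14 (-0.06). The difference between the lines in these effects was not tested, since MOLT-14 has no replicates.

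Between the lines, PF-382 and MOLT-14 differed in most Polycomb genes, with the STAG2 states of each line weighted equally. Here 6 genes were higher in PF-382, 2 were lower and 2 did not pass, where 55.4% of the 20100 genes tested were called (26.99% higher and 28.4% lower). The spread in this fit came from PF-382 alone, and the MOLT-14 libraries are assumed to vary like them. The libraries of the lines did not overlap for 8 of the 10 genes and for 56.5% of all genes. The median log2 difference was 0.82 over the 10 genes and -0.05 over all genes. With the length offset it was 0.29 over the 10 genes, 4 higher and 2 lower, and -0.07 over all genes.

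CBX2 was lower in PF-382, with 54.6 to 113 CPM over its 5 libraries, against 332 and 269 CPM in MOLT-14 with STAG2 and the empty vector. The gap exceeded the spread in either line (log2 difference -1.90 ± 0.11, SE, adjusted p 8.11e-05). EZH1 had 18.1 to 27.3 CPM in PF-382, against 49.8 and 52.1 CPM in MOLT-14 (-1.18 ± 0.11, SE, adjusted p 0.000356). It too was lower in each PF-382 library than in either MOLT-14 library. SUZ12 had 120 to 182 CPM in PF-382, against 71.1 and 62.3 CPM in MOLT-14 (1.14 ± 0.11, SE, adjusted p 0.000454). EED had 26.4 to 35.4 CPM in PF-382, against 15.7 and 17.4 CPM in MOLT-14 (0.91 ± 0.17, SE, adjusted p 0.00518). Both of these PRC2 core genes were higher in every PF-382 library. EZH2 had 69.2 to 126 CPM in PF-382, against 65.7 and 59.4 CPM in MOLT-14 (0.72 ± 0.18, SE, adjusted p 0.0159). The lowest PF-382 library, wild-type library 1, stood just above MOLT-14, and the EZH2 call was lost with wild-type PF-382 alone (0.51, adjusted p 0.146) and without the empty-vector library (0.64, 0.0789).

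RNF2 had 38.2 to 45.7 CPM in PF-382, against 14.9 and 14.5 CPM in MOLT-14 (log2 difference 1.54 ± 0.13, SE, adjusted p 0.000261). BMI1 (1.01, adjusted p 0.00245) and MTF2 (0.95, adjusted p 0.00662) were also higher in PF-382. The implied transcripts of these 3 genes were longer in PF-382 than in MOLT-14. RNF2 had 1901 to 2280 bases in PF-382 and 1165 to 1260 bases in MOLT-14, BMI1 2190 to 2563 and 1379 to 1543 bases, and MTF2 2509 to 2644 and 1615 to 1671 bases. Length shifts as large were seen in 1.47%, 1.68% and 2.42% of the 7573 coding genes. With the length as an offset, RNF2 was still higher (0.80, adjusted p 0.00535), but BMI1 (0.28, 0.0980) and MTF2 (0.30, 0.230) no longer passed. JARID2 (0.19, adjusted p 0.195) and PHF19 (-0.07, adjusted p 0.706) overlapped between the lines, and PHF19 stood at 0.40 (0.232) with wild-type PF-382 alone.

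Counts of SUZ12 and BMI1 were partly fractional, so that reads were shared with other genes. The pseudogene SUZ12P1 had 849 to 1226 counts in knockout and 376 to 378 counts in wild type. The readthrough gene COMMD3-BMI1 had 688 counts with STAG2 and 629 counts with the empty vector in MOLT-14, where BMI1 had 1777 and 1535 counts. With the counts of such pairs summed, each of the 10 genes kept its call in both tests, and BMI1 then stood at 0.54 on the log2 scale between the lines, against 1.01 as deposited.

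Other genes of the pathways differed between the lines as well, where 55.4% of all genes were called (26.99% higher and 28.4% lower). Of the 24 other PRC1 genes 8 were higher and 5 lower in PF-382, near that share (7 and 7 with upper-quartile scaling), and PCGF5 (1.94, adjusted p 0.000791) and YAF2 (1.41, 0.00123), subunits of variant PRC1, were higher while BCORL1 (-1.28, 0.00131) was lower. Of the 6 other PRC2 genes, the histone-binding subunit RBBP4 (0.86, 0.0218) and AEBP2 (0.75, 0.0268) were higher, and the elongin-binding EPOP (-0.91, 0.0105) was lower. Among 15 demethylase and trithorax genes 1 was higher and 8 were lower in PF-382 (0 and 10 with upper-quartile scaling), and the demethylases KDM6A (-1.62, 0.000140) and KDM6B (-1.77, 0.000623) were both lower, as was KMT2B (-0.97, 0.000975). KDM6A had 16.4 to 25.4 CPM in PF-382, against 60.9 and 66.1 CPM in MOLT-14. Of the 11 genes of the deubiquitinase list 3 were higher and 5 lower, with KDM1B (-1.06, 0.00110), FOXK1 (-1.18, 0.00214) and MBD6 (-1.40, 0.00258) lower. Of 19 Polycomb targets tested, 1 was higher and 10 were lower in PF-382, among them the homeobox genes HOXB3 (-1.45, 0.000341) and HOXB9 (-6.35, 0.000416) and PAX6 (-3.55, 0.000478). Targets near the floor can enter this test through 1 line alone, so these counts do not measure a direction. With a filter of 1 CPM in 2 libraries, 15 were tested, of which 0 were higher and 9 lower. Of the 20 E2F and S-phase genes 8 were higher and 3 lower, with CCNE2 (3.05, 0.000568), CDK1 (1.94, 0.00166) and CCNA2 (1.82, 0.00205), genes that drive the cell cycle, higher in PF-382. The split of that list turned to 6 higher and 6 lower with upper-quartile scaling, and CCNE2, CDK1 and CCNA2 were still called in each alternative. AEBP2 and RBBP4 were not called in 7 and 4 of the 17 alternatives, while EPOP was called in all.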

How the data were processed

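Total RNA was compared in 7 libraries. Per the submitters' processing notes, STAR and RSEM were used with GRCh38 (hg38), and versions, annotation release and strand setting are not given in the sources used here. The authors deposited, per the file headers, expected counts without normalisation, TPM and FPKM for each gene. Counts were rounded before testing, and 91.8% to 93.3% of them were already whole (within 0.005). The 92 ERCC features were left out.

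PF-382 was tested with edgeR 4.0.16 in R 4.3.3 (TMM scaling, filterByExpr, quasi-likelihood test, adjusted over all genes), and the lines with 4 group means over all 7 libraries. SE values were derived from the log2 change and the F statistic. MOLT-14 was compared by log2 ratios of CPM with a prior count of 2, with exact binomial intervals at 95%. CPM use TMM over all 7 libraries, and intervals cover counting error only, since reads carry no molecular identifiers. DESeq2 1.42.0 was an alternative. Scripts were tested on simulated data. Gene positions are from GENCODE 29 (GRCh38). Named genes are the 10 Polycomb genes, STAG2, and from each list the 3 with the smallest adjusted p among those called in each test, with neighbours that can share reads and the paralogues in the shares. CDKN2A, CDKN2B, TK1 and MKI67 were named after their values were seen. Members and lists were chosen with earlier results of these data known. The length offset and TMM over the MOLT-14 pair alone were added after seeing the data. Pearson's r of log CPM across genes was 0.994 to 0.995 between knockout libraries, 0.978 between wild-type libraries and 0.963 to 0.965 between the groups.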

Additional observations from a re-analysis of the deposited data

Results flagged for a closer look

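Of the 10 Polycomb genes, 3 went opposite ways against STAG2 in the 2 lines, counting those with no overlap of knockout and wild-type libraries and a MOLT-14 counting interval that excludes 0. The share of all genes that meet this rule was not computed, so whether 3 of 10 is unusual cannot be told. Knockout and wild-type libraries did not overlap for 60.03% of all genes tested. EZH2 was higher in knockout than in wild-type PF-382 (log2 change 0.41, not called) and higher with STAG2 than with the empty vector in MOLT-14 (0.15). SUZ12 did the same (0.43 in PF-382 and 0.19 in MOLT-14), as did CBX2 (0.84 and 0.30). In each case every knockout library was above both wild-type libraries, and the single MOLT-14 library with STAG2 was above the empty-vector library. On the TPM of MOLT-14, relative to the median of all genes, the values were 0.13 for EZH2, 0.09 for SUZ12 and 0.18 for CBX2. The difference between the lines was not tested, since MOLT-14 has 1 library per condition, and the part of the E2F and S-phase genes in this was not tested. Their median log2 values were 0.81 in PF-382, where 10 of 20 rose and 2 fell, and 0.41 in MOLT-14, where none of 20 was past 2-fold. By sign alone EZH1 (-0.49 in PF-382 and -0.06 in MOLT-14) and EED (-0.01 and -0.14) also ran opposite ways, but the interval of EZH1 in MOLT-14 included 0 and the libraries of EED in PF-382 overlapped.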

How the results depend on the processing

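No paired analysis was possible because the labels do not pair the libraries. In PF-382, upper-quartile scaling moved the median of all genes to -0.18 and the calls to 1824 higher and 3566 lower (2763 and 2548 with TMM), with 1 Polycomb gene higher. Also 1 Polycomb gene was higher with 1 CPM in 2 libraries, and 1 was lower without a filter. Leaving out 1 library gave 1194 to 3570 genes higher, 1077 to 2734 lower, and 1 to 3 Polycomb genes each way. Some genes not called turned direction in PF-382. EED stood at 0.065 without a filter, 0.013 with the length offset, 0.015 with all 7 libraries, and -0.20 to 0.24 without 1 library (0.07 without knockout library 2 and 0.24 without wild-type library 2). JARID2 stood at 0.036 without a filter and -0.12 to 0.027 without 1 library (highest without knockout library 2), and BMI1 at -0.23 to 0.11 (highest without wild-type library 2). Between the lines, PHF19 stood at 0.26 with the length offset, 0.40 with wild-type PF-382 alone, and -0.38 to 0.23 without 1 library (highest without the STAG2-transduced library). JARID2 stood at -0.049 to 0.43 there (lowest without the empty-vector library). Wild-type PF-382 alone gave 3611 genes higher, and leaving out 1 library 4021 to 5956 higher, 4292 to 6788 lower, 5 to 6 Polycomb genes higher and 2 lower. Upper-quartile scaling gave 4608 higher and 6588 lower (5424 and 5717 with TMM), with a median of -0.19. In MOLT-14 a minimum of 1 CPM gave 256 genes past 2-fold higher and 291 lower, and TPM 31 and 666 (114 and 89 as reported). Of 140 values of the 10 genes over 14 alternatives in PF-382, 115 kept direction and call, as did 162 of 170 over 17 between the lines. In MOLT-14, 49 of 60 values over 6 alternatives stayed within the counting interval of the gene, and 11 moved out of it. The causes were not tested.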

Other observations

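TK1, the thymidine kinase gene of the E2F and S-phase list, had 30.0, 0.197 and 14.0 CPM in knockout libraries 1 to 3, and 0 counts in both wild-type libraries, where 3 counts would make 0.0938 and 0.0972 CPM. The knockout libraries differed from each other far more than for any of the 10 Polycomb genes, and TK1 did not pass the test (adjusted p 0.0589). In MOLT-14 it had 184 CPM with STAG2 and 112 CPM with the empty vector.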
